A study of Drosophila melanogaster with 69 samples.

Results

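Sperm tail and mitochondrial derivative genes are a group of 10 Drosophila genes whose products build the flagellum and the fused mitochondria of the spermatid: dj, djl, Mst84Da, Mst84Db, Mst84Dc, Mst84Dd, Mst87F, Mst98Ca, Mst98Cb and fzo. They were taken by FlyBase symbol, and all 10 were found among the 17807 genes listed for each library. Whole testes and ovaries of adult flies were profiled by poly(A) bulk RNA-seq at days 1, 3, 5, 7, 9 and 11, giving 36 testis and 33 ovary libraries. The question is how the genes behave over time in chinmoST testes, in which the somatic cells are described as progressively losing male identity.

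Wild-type flies were Oregon R. chinmoST is an allele of chinmo, which encodes a BTB zinc-finger protein. It is uncharacterized at the sequence level and is used as a model for Chinmo loss in the somatic cyst lineage, not in the germ cells that express the genes described here. Their libraries bear a genotype label that names other alleles, Sod1[X-39] and e[1] over TM3, a balancer chromosome marked by Sb[1] and Ser[1], and it does not name chinmo. No heterozygous or balancer-only control is among the groups, so an effect of chinmoST and one of the strain background cannot be told apart. Flies of both genotypes were raised at 25 °C, and about 50 to 60 pairs of testes or 20 to 25 pairs of ovaries were pooled for a library. There were 3 libraries for each genotype and day in testes (18 chinmoST, 18 wild-type), and 18 chinmoST and 15 wild-type ovary libraries. For the youngest flies the title of a library says day 0 and its time label day 1, and day 1 is used here. The protocol text does not mention chinmoST ovaries, while the labels list them. Nothing says that replicates came from separate crosses, so p-values measure only the spread between these pools.

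A Drosophila spermatid grows to an extreme length. After meiosis its mitochondria aggregate and fuse into the nebenkern, a layered sphere beside the nucleus, which then unfurls into the mitochondrial derivatives that run along the axoneme for the length of the tail. Fzo, the mitofusin-type GTPase encoded by fzo, carries out that fusion. Dj (Don juan) and its relative Djl are proteins of the late spermatid, and both are found along the sperm tail, Dj with the mitochondrial derivatives. The Mst84D genes, Mst87F and the Mst98C genes encode structural tail proteins built on repeats of cysteine, glycine and proline. These messages are mostly made in primary spermatocytes and stored, and they are translated only after meiosis, so the RNA is present in cells that have not yet begun a tail.

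All 10 genes are protein coding and lie on chromosome arm 3R (BDGP6, the assembly also called dm6). dj (FBgn0019828, chr3R:7059315-7060524, plus strand) and djl (FBgn0037463, chr3R:7060767-7061919, plus strand) are 242 nt apart. The Mst84D cluster spans 2956 nt. It holds Mst84Dd (FBgn0004175, chr3R:7363307-7363773), Mst84Dc (FBgn0004174, chr3R:7364254-7364673) and Mst84Db (FBgn0004173, chr3R:7365160-7365627) on the minus strand and Mst84Da (FBgn0004172, chr3R:7365850-7366262) on the plus strand. Mst87F (FBgn0002862, chr3R:13827151-13828008, minus strand) stands alone. Mst98Ca (FBgn0002865, chr3R:28291338-28292656) and Mst98Cb (FBgn0004171, chr3R:28292798-28293863) are plus-strand neighbours 141 nt apart, and fzo (FBgn0011596, chr3R:23201644-23204034, minus strand) lies within the gene cnc on the same strand without sharing an exon with it. TM3 is a balancer of the chromosome that carries this arm, so the genotypes may carry different alleles at these loci, which was not examined.

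The transcripts differ in length. The Mst84D and Mst87F messages are 358 to 515 nt long, those of dj, djl, Mst98Ca and Mst98Cb 1066 to 1319 nt, and that of fzo 2391 nt. Mst84Da overlaps the antisense gene MstProx by 269 exonic nt and Mst87F overlaps an antisense noncoding RNA by 41 nt. Whether counting used strand is not stated, so reads in the overlaps cannot be assigned with certainty. MstProx had 143 to 959 estimated counts in testis libraries, against 14467 to 289046 for Mst84Da. Estimated counts that were not whole numbers (beyond 0.02), as RSEM gives where reads are divided between transcripts, occurred in 29 of 36 testis libraries for Mst84Da, in 13 for Mst98Cb, in 3 for Mst98Ca and in 0 for the other genes. Mst98Ca and Mst98Cb are near relatives. The levels of these 3 genes are less certain for that reason.

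Library totals were between 32462418 and 181988641 estimated counts, and the least abundant reading of any of the 10 genes in a testis library was 2328 counts, for Mst84Db. Counting error is therefore small in testes beside the differences between libraries. The labelled tissues had their markers: the summed level of 7 follicle cell genes was 1024 to 31751 CPM (counts scaled to library size by TMM, the trimmed mean of M-values, within each tissue) in ovaries and at most 6.47 in wild-type testes. The testes were not free of other tissue, since 8 accessory gland genes summed to 5.46 to 1333 CPM across the testis libraries. Accessory gland sums at days 9 and 11 were 5.46 to 274 in chinmoST and 15.1 to 222 in wild-type testes, so they overlapped between genotypes.

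Replicate 1 of wild-type testes at days 3, 5, 7 and 9 stood apart from the other wild-type testes. In these 4 libraries long genes were low and short genes high: across genes, the deviation of a library from the mean followed gene length with a Spearman rho of -0.69 to -0.65, against -0.12 to 0.090 in the other 14 wild-type testes and -0.34 to 0.36 in the 18 chinmoST testes. The genes described here moved with it. For dj, djl, Mst84Da, Mst84Dc, Mst84Dd and Mst87F all 4 libraries were above all 14 others, with medians 2.01 to 2.55 times as high, whereas for Mst98Cb and fzo all 4 were below them (0.823 and 0.734 times). Mst84Db was intermediate, with 2 of the 4 above the others, and Mst98Ca was below in 3. Results whose calls changed without these libraries are given both ways.

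In wild-type testes the group made up a sizeable share of the messenger RNA. Summed over the 10 genes, TPM values (a level per transcript length, scaled to the same total in every library) amounted to 2.25 to 2.89% of the total in the 14 libraries and 3.32 to 4.58% in the 4. The TPM levels in the 14 libraries spanned a wide range (mean ± SD). Mst84Dc was the most abundant at 5345 ± 524 TPM, followed by Mst84Da at 4717 ± 783 TPM, Mst87F at 4236 ± 555 TPM and Mst98Ca at 3617 ± 202 TPM. Neighbours in that order lay within each other's SD range or close to it. Lower were Mst98Cb at 2208 ± 377 TPM, Mst84Dd at 1872 ± 340 TPM and Mst84Db at 1678 ± 419 TPM, which differed by less than their spread. dj stood at 1174 ± 44.9 TPM and djl at 817 ± 61.6 TPM, so the upstream gene of the pair was the higher, and fzo, an enzyme rather than a structural protein, was lowest at 117 ± 10.4 TPM. TPM values of the short messages rest on small effective lengths from RSEM, 124.5 to 187.5 nt for Mst84Da and 128.7 to 188.5 nt for Mst84Dc. The order depends on the unit: in the 14 libraries Mst98Ca had 3167 to 4375 CPM and Mst84Dc 654 to 885 CPM.

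**Figure D1:**
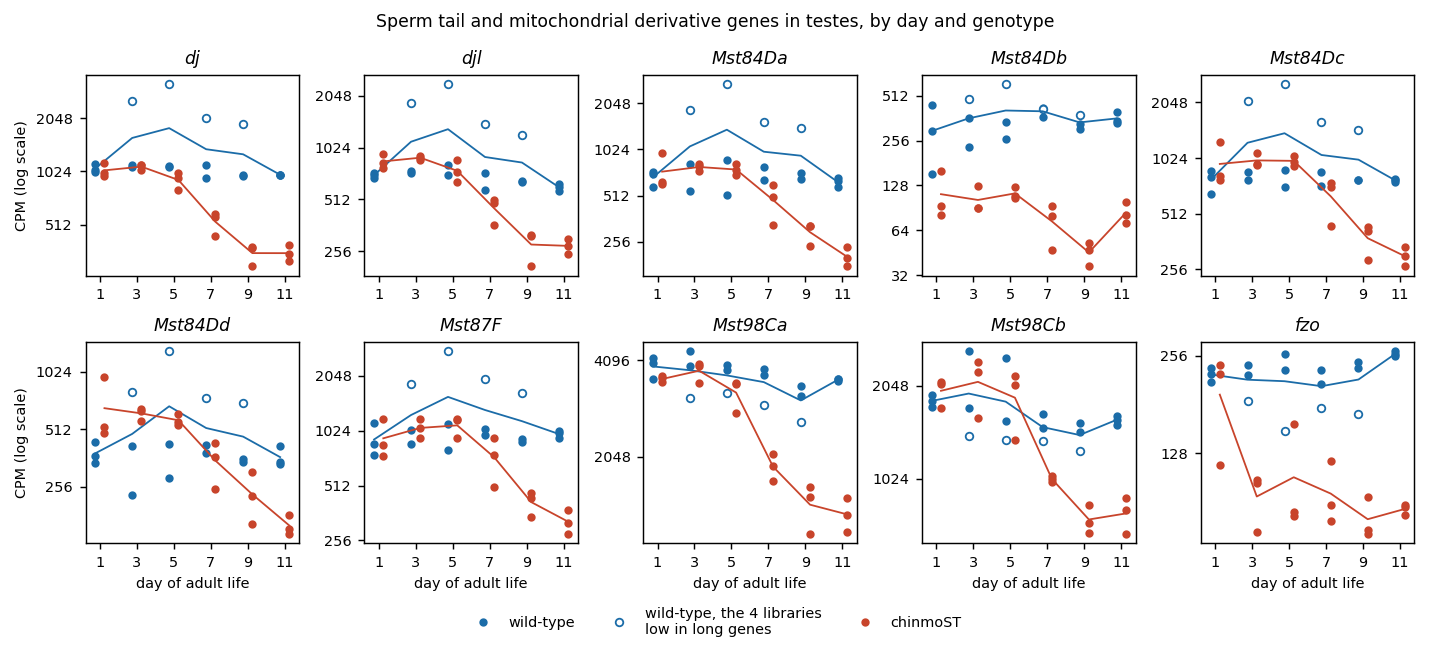
Level of each of the 10 genes in the 36 testis libraries, in CPM on a log scale against the day of adult life. Each point is a library, blue is wild-type and red chinmoST, and open symbols are the 4 wild-type libraries low in long genes. From day 7 the chinmoST points drop below the wild-type points in most panels, and at days 9 and 11 all 6 chinmoST libraries are below all 6 wild-type libraries for every gene.

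By days 9 and 11, every one of the 10 genes was lower in chinmoST than in wild-type testes, by 1.95- to 5.66-fold (quasi-likelihood test of edgeR, p adjusted by Benjamini-Hochberg over 14910 genes and called below 0.05 where the fold change was 1.5 or more). A lower level was called for 31.4% of all genes in this comparison. The median log2 fold change was -1.45 for the 10 genes and 0.09 for all genes. For each of the 10, all 6 chinmoST libraries were below all 6 wild-type libraries, which held for 27.2% of all genes. All 10 calls remained without the 4 wild-type libraries, with library size alone as the scaling, with DESeq2 and with TPM. In bulk tissue, fewer cells of a type and less RNA per cell cannot be told apart.

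dj, a gene of the mitochondrial derivatives, stood at 320, 395 and 349 CPM in the chinmoST libraries of day 11 and at 982, 978 and 984 CPM in wild-type testes. All chinmoST values were less than the lowest wild-type value by a wide margin, and the wild-type values hardly varied. At day 9, dj had 385, 380 and 298 CPM in chinmoST and 1904, 977 and 960 CPM in wild-type libraries, the first of these from the 4 that stood apart. Over both days the log2 fold change of dj was -1.66 ± 0.24 (SE, edgeR adjusted p = 7.2e-07), and -1.46 ± 0.087 without the 4 libraries. djl followed its neighbour, with 249, 301 and 277 CPM in chinmoST and 633, 576 and 601 CPM in wild-type testes at day 11. Its log2 fold change over days 9 and 11 was -1.36 ± 0.26 (edgeR adjusted p = 3.9e-05).

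Among the cysteine-rich tail proteins, Mst98Ca has the largest count and the smallest error. It had 1192, 1518 and 1348 CPM in chinmoST and 3519, 3570 and 3587 CPM in wild-type testes at day 11, and 1642, 1533 and 1175 CPM against 2623, 3167 and 3413 CPM at day 9. The groups were well apart on both days. Its log2 fold change over both days was -1.24 ± 0.10 (edgeR adjusted p = 1.5e-11). Mst98Cb, the gene next to it, had 678, 883 and 808 CPM in chinmoST and 1535, 1642 and 1594 CPM in wild-type testes at day 11, and showed the smallest change of the 10, -0.96 ± 0.15 (edgeR adjusted p = 1.6e-06).

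Mst87F had 278, 375 and 320 CPM in chinmoST and 1017, 995 and 936 CPM in wild-type testes at day 11, without overlap. Over days 9 and 11 its log2 fold change was -1.54 ± 0.25 (edgeR adjusted p = 4.3e-06). In the Mst84D cluster the sizes were unequal. Mst84Da, at 177, 236 and 202 CPM in chinmoST and 585, 667 and 633 CPM in wild-type testes of day 11, changed by -1.63 ± 0.31 on the log2 scale over days 9 and 11 (edgeR adjusted p = 3.2e-05). Mst84Dc, at 265, 336 and 304 CPM against 781, 784 and 758 CPM, changed by -1.39 ± 0.27 (edgeR adjusted p = 5.1e-05). Both genes were lower in each chinmoST library than in any wild-type library of these days. Mst84Dd and Mst84Db marked the ends, with log2 fold changes of -1.10 ± 0.30 (edgeR adjusted p = 0.0018) and -2.50 ± 0.24 (edgeR adjusted p = 4.0e-10).

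fzo, whose product fuses the mitochondria, had 82.6, 88.7 and 87.1 CPM in chinmoST and 256, 265 and 258 CPM in wild-type testes at day 11. Replicates were tight in both genotypes. Over days 9 and 11 the log2 fold change of fzo was -1.51 ± 0.18 (edgeR adjusted p = 1.4e-08). fzo has the longest message of the 10 and was low in the 4 wild-type libraries, and without them its value was -1.58 ± 0.16.

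Several values of the short messages depended on the length trend. When each library's trend with gene length was removed, 9 of the 10 genes were still called lower at days 9 and 11, with the smallest values among the short messages. Mst84Da changed by -0.84, Mst84Dc by -0.61 and Mst87F by -0.83 on the log2 scale, and Mst84Dd by -0.35, which lost its call (edgeR adjusted p = 0.039, below the fold limit). Mst84Db, also a short message, kept one of the largest values, -1.81. The longer messages dj, Mst98Ca and fzo had values near those above, dj at -1.49, Mst98Ca at -1.21 and fzo at -1.84.

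**Figure D2:**
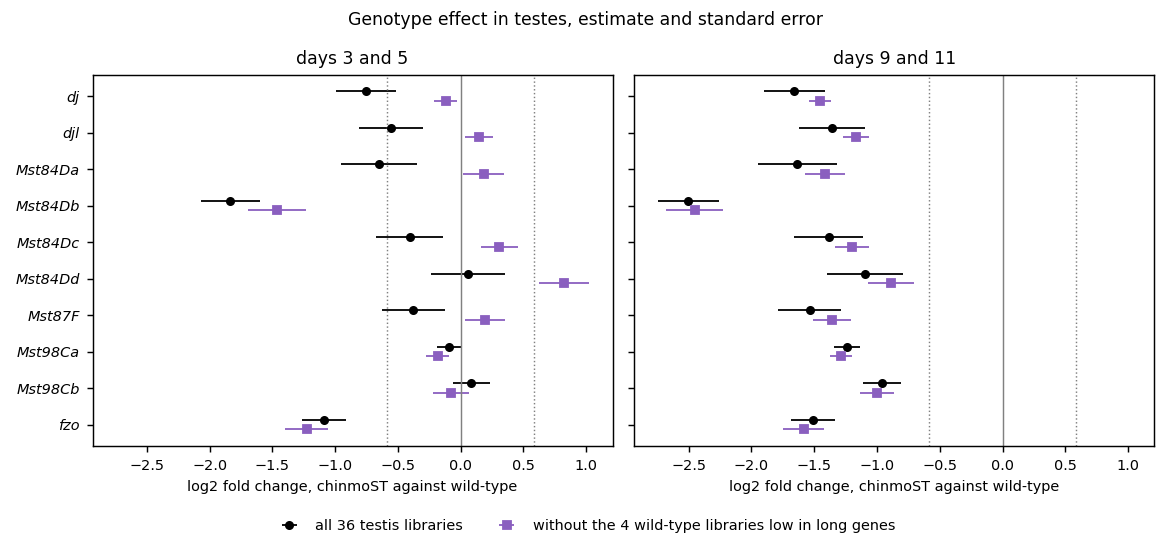
Log2 fold change of chinmoST against wild-type testes for each of the 10 genes (horizontal axis), with bars of 1 standard error, for days 3 and 5 and for days 9 and 11, with all libraries (circles) or without the 4 wild-type libraries (squares), and dotted lines at a 1.5-fold change. At days 9 and 11 all estimates lie between -2.50 and -0.89 in both fits, while at days 3 and 5 the estimates with all libraries lie between -1.83 and 0.08 and only Mst84Db and fzo are beyond the 1.5-fold line below 0 in both fits.

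The difference built up with age in chinmoST testes and not in wild-type ones. Comparing day 11 with day 1 within chinmoST, 9 of the 10 genes fell (31.5% of all genes were called lower), by -1.17 for fzo to -2.04 for Mst84Dd on the log2 scale, and Mst84Db alone was not called (-0.41, edgeR adjusted p = 0.26). dj, for example, had 1007, 962 and 1148 CPM at day 1 and was below 400 CPM in all chinmoST libraries of day 11. When each library's trend with gene length was removed, the short messages changed less. Mst84Da changed by -1.12, Mst84Dc by -0.94, Mst84Dd by -1.35 and Mst87F by -0.89, all still called. Mst84Db was at 0.26 and was not called. In wild-type testes none of the 10 was called between these days (0.469% of all genes were lower and 0.195% higher), with log2 values of -0.23 to 0.28, 0 of 10 at an unadjusted p under 0.05 and 0 of 10 with DESeq2.

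The change of the genotype effect between day 1 and day 11 was tested directly as an interaction. It was negative and called for 9 genes, again all except Mst84Db (25.3% of all genes were called this way). The values were -1.44 ± 0.48 for dj, -1.40 ± 0.52 for djl, -1.27 ± 0.20 for Mst98Ca, -1.12 ± 0.29 for Mst98Cb, -1.62 ± 0.50 for Mst87F and -1.38 ± 0.35 for fzo. The Mst84D genes other than Mst84Db had -1.74 ± 0.61 (Mst84Da), -1.65 ± 0.54 (Mst84Dc) and -1.97 ± 0.60 (Mst84Dd), and Mst84Db had -0.69 ± 0.46 (edgeR adjusted p = 0.20). With replicate 3 left out at every day only 2 of the 9 kept their call, Mst98Ca and fzo, although the sign held for all 10 genes, and 7 kept it without replicate 2. When each library's trend with gene length was removed, the short messages had smaller values. These were -0.98 for Mst84Da, -0.90 for Mst84Dc, -1.26 for Mst84Dd, -0.97 for Mst87F and -0.01 for Mst84Db.

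Taken day by day, the number of the 10 genes called lower in chinmoST testes grew. At day 1 it was 1, Mst84Db (3.38% of all genes), at day 3 it was 2, Mst84Db and fzo (12.6%), and at day 5 it was 3, with dj added (15.1%). At day 7 it reached 7 (22.8%), leaving out Mst84Dc, Mst84Dd and Mst98Cb, and at day 9 (28.0%) and day 11 (29.9%) it was 10. Without the 4 libraries the counts of genes called lower were 2 at day 5, dj being lost (14.9%), 5 at day 7, with djl, Mst84Da and Mst87F lost and Mst98Cb gained (22.1%), and 9 at day 9, Mst84Dd being lost (28.8%). They were unaltered at days 1, 3 and 11. Leaving out a replicate gave 4 to 6 at day 7, 9 to 10 at day 9 and 8 to 10 at day 11. Averaged over the 6 days, 8 genes were called lower, all but Mst84Dd and Mst98Cb (21.1%). Without the 4 libraries that average called 4, namely dj, Mst84Db, Mst98Ca and fzo (18.8%).

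**Figure D3:**
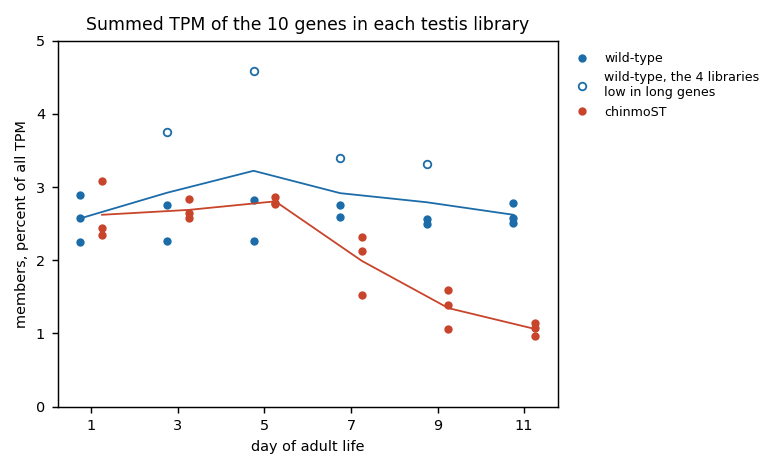
Summed TPM of the 10 genes as a percent of all TPM in each of the 36 testis libraries, against the day of adult life, with genotypes and the 4 wild-type libraries marked as in the legend. The chinmoST libraries lie between 2.34 and 3.08% at day 1 and between 0.968 and 1.14% at day 11, while the wild-type libraries of day 11 lie between 2.51 and 2.78%.

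As a share of all TPM, the 10 genes together held 2.62 ± 0.398% in chinmoST testes at day 1 and 2.80 ± 0.0534% at day 5, then 1.99 ± 0.410% at day 7, 1.35 ± 0.263% at day 9 and 1.06 ± 0.0863% at day 11 (mean ± SD, n = 3). Wild-type testes of day 11 held 2.62 ± 0.139%. The share in chinmoST testes thus lay within the wild-type range until day 5 and was below all 18 wild-type libraries at days 9 and 11. Within the group, the order of TPM levels at days 9 and 11 stayed much the same in chinmoST testes, from Mst84Dc at 2738 ± 682 TPM to fzo at 48.6 ± 4.92 TPM (n = 6). Mst84Dd (1201 ± 440 TPM) and Mst98Cb (1142 ± 100 TPM) changed places within their spread. Mst84Db left its place and stood at 386 ± 123 TPM, next to djl at 396 ± 56.4 TPM and below dj at 477 ± 45.1 TPM, whereas in wild-type testes it was above both.

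The earlier days need the 4 libraries to be taken into account, since replicate 1 of wild-type testes at days 3 and 5 is among them. Over days 3 and 5, 3 genes were called lower, dj, Mst84Db and fzo (16.8% of all genes), and 1 of the 10, Mst84Db, had all chinmoST libraries below all wild-type libraries (9.97% of all genes). The value of dj, -0.75 ± 0.24 (edgeR adjusted p = 0.012), rested on the 4 libraries: without them it was -0.12 (edgeR adjusted p = 0.28). Mst84Db and fzo stayed called lower without them (14.5% of all genes), and Mst84Dd was then called higher in chinmoST, at 0.82 ± 0.20 on the log2 scale (edgeR adjusted p = 0.0014, 15.1% of all genes called higher). By CPM without the 4 libraries, every chinmoST library was below every wild-type one for 2 genes, Mst84Db and fzo. Every chinmoST library was above for 2, Mst84Dc and Mst84Dd, and 6 genes overlapped. The share of all genes was not computed for this. Mst84Dc, at 933 to 1093 CPM in chinmoST and 713 to 885 CPM in wild-type testes, was not called (0.31). The chinmoST means of djl, Mst84Da and Mst87F were also higher, with overlap. For Mst98Ca and Mst98Cb, the genes with most reads, the values at days 3 and 5 were -0.09 and 0.08.

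fzo was among the genes called lower at day 3. Its chinmoST libraries had 239, 225 and 118 CPM at day 1, against 212, 235 and 225 CPM in wild-type testes, so they overlapped and were not called apart (-0.21, edgeR adjusted p = 0.76). At day 3 fzo had 106, 73.0 and 104 CPM in chinmoST against 186, 223 and 239 CPM in wild-type testes, a log2 fold change of -1.20 ± 0.25 (edgeR adjusted p = 0.00082) that was not called without replicate 2 (edgeR adjusted p = 0.089). At day 5 fzo had 157, 84.6 and 82.2 CPM in chinmoST against 150, 260 and 231 CPM in wild-type testes, with overlap, and its call (-0.98 ± 0.25, edgeR adjusted p = 0.0030) was lost in 4 of 12 alternatives, without replicate 2, without replicate 3, with that day alone and with TPM. The call over days 3 and 5 together held in all 12. Later chinmoST levels of fzo were in a similar range, 121, 88.6 and 78.9 CPM at day 7 and 93.8, 72.2 and 74.4 CPM at day 9. The third library of day 1, at 118 CPM, was near these levels, but it had the lowest rho with gene length of the chinmoST testes (-0.34). fzo, with the longest message, was also low in the 4 wild-type libraries with a negative rho. The part of the length trend in this value was not tested. The first library of day 5 was still above the others.

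Mst84Db was low in chinmoST testes at every age. At day 1 it had 80.9, 93.3 and 161 CPM in chinmoST and 152, 441 and 298 CPM in wild-type testes, with 1 wild-type library inside the chinmoST range, and a log2 fold change of -1.41 ± 0.33 (edgeR adjusted p = 0.0067). At day 3 it had 127, 90.1 and 89.8 CPM against 489, 233 and 360 CPM, and at day 9 52.6, 47.0 and 36.5 CPM against 380, 308 and 329 CPM. The genotypes did not overlap on either of those days. At day 11 its chinmoST level was 71.4, 98.6 and 81.5 CPM, above all 3 libraries of day 9, while its 3 neighbours were at their lowest mean of the series. The call at day 1 was lost when replicate 2 or replicate 3 was left out at every day.

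Mst84Dd went the other way at the start. At day 1 it had 486, 527 and 964 CPM in chinmoST and 339, 439 and 370 CPM in wild-type testes, all chinmoST libraries being above all wild-type ones (as for 14.6% of all genes), with a log2 value of 0.78 ± 0.42 that was not called (edgeR adjusted p = 0.34) and 0.79 without the 4 libraries (edgeR adjusted p = 0.031). The 964 CPM of this short message was from the third library, which had the lowest rho with gene length of the chinmoST testes (-0.34). djl was also higher in every chinmoST library of day 1, at 835, 778 and 942 CPM against 710, 681 and 734 CPM, and was not called (0.27, edgeR adjusted p = 0.80). At day 3 Mst84Dd had 656, 564 and 638 CPM in chinmoST against 804, 232 and 416 CPM, the 804 being from 1 of the 4 libraries. Its log2 value at day 3 was 0.36 and not called. Without the 4 libraries it was 0.95 and called higher, as for 1452 of 14922 genes. By day 11 Mst84Dd had 145, 182 and 155 CPM against 337, 417 and 344 CPM. Mst84Dd thus ended below wild-type after starting no lower.

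**Figure D4:**
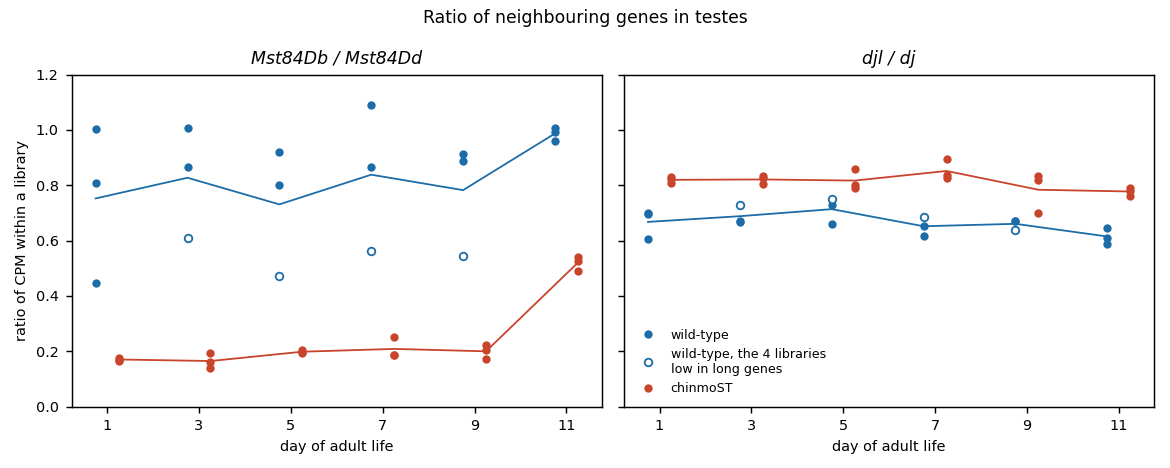
Ratio of the CPM of a pair of neighbouring genes within each testis library, Mst84Db to Mst84Dd in one panel and djl to dj in the other, against the day of adult life, with genotypes as in the legend. The ratio of Mst84Db to Mst84Dd is 0.141 to 0.253 in chinmoST libraries of days 1 to 9 and 0.492 to 0.542 at day 11, and 0.447 to 1.09 in wild-type libraries.

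A ratio of neighbouring genes within a library does not depend on depth or scaling, and Mst84Db and Mst84Dd have transcripts of the same length (415 nt). Their CPM ratio was 0.141 to 0.253 in all 15 chinmoST libraries of days 1 to 9 and 0.447 to 1.09 in the 15 wild-type libraries of those days, so the genotypes did not overlap. Equal length did not keep the ratio the same in the 4 wild-type libraries low in long genes. Their median was 2.12 times that of the other wild-type testes for Mst84Dd and 1.34 times for Mst84Db. They had the lowest wild-type ratio at days 3, 5, 7 and 9 (0.609, 0.471, 0.562 and 0.544), whereas the value of 0.447 is of day 1. At day 11 the ratio of Mst84Db to Mst84Dd was 0.492 to 0.542 in chinmoST and 0.959 to 1.01 in wild-type testes, higher in chinmoST than in any younger chinmoST library. The ratio of djl to dj differed less, at 0.701 to 0.893 (median 0.819) in chinmoST and 0.589 to 0.751 (median 0.668) in wild-type libraries, with overlap. That of Mst98Cb to Mst98Ca was 0.449 to 0.632 and 0.405 to 0.635, with much overlap. These ratios were examined after the values were seen and are given without a test, and sequence differences between the genotypes at these loci were not examined.

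Other genes needed for the same structures are given from lists of known function, and 31.4% of all genes were called lower at days 9 and 11. Of 8 sperm tail and axoneme genes, all 8 were called lower at days 9 and 11 (median log2 fold change -1.11), from -1.21 for betaTub85D, the testis beta-tubulin of the axoneme, to -0.83 for cmb, which is needed when spermatids are individualized. None of the 8 was called at days 3 and 5 (16.8% of all genes were called lower). Of 9 genes of mitochondrial fusion, fission and nebenkern shape, 4 were lower at days 9 and 11, knon (-1.41), a testis subunit of the ATP synthase family, park (-1.39), a ubiquitin ligase of mitochondrial quality control, bb8 (-1.12), a testis glutamate dehydrogenase, and skap (-1.01), a succinyl-CoA synthetase subunit, and 4 were not called. Opa1, which fuses inner mitochondrial membranes in all tissues, was higher at 0.92 (34.1% of all genes were called higher). Marf, the mitofusin of other tissues and the relative of fzo, was at 0.07 and was not called, while fzo was at -1.51.

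The regulators upstream of these messages are read against the 31.4% of all genes called lower at these days. Of 12 subunits of the testis TAF and tMAC complexes, which switch on spermatocyte genes, 5 were lower at days 9 and 11 (median -0.48), from -1.28 for vis to 0.09 for achi, which was not called. Of 7 genes that control translation of stored messages in the male germline, 4 were lower (median -0.68). Among them bol, which drives meiotic entry, was lowest at -1.10, and Rbp4 was highest at 0.28 and not called. The gene chinmo, which gives the mutant its name, and Sod1, which the genotype label names, did not pass the test in testes at days 9 and 11, chinmo at -0.08 (edgeR adjusted p = 0.71) and Sod1 at 0.37 (edgeR adjusted p = 0.21). Both values include 1 of the 4 wild-type libraries, listed first at day 9. There chinmo had 253, 289 and 299 CPM in chinmoST and 230, 428 and 408 CPM in wild-type testes. At day 11 chinmo had 407, 372 and 466 CPM against 357, 363 and 374 CPM. Sod1 had 99.4, 136 and 150 CPM against 141, 61.6 and 68.0 CPM at day 9. A fit without the 4 libraries is not given for these 2 genes.

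Markers of the late germ cell stages were lower along with the 10 genes, while those of the earliest stage were higher. Of all genes, 31.4% were called lower and 34.1% higher at days 9 and 11. The 8 late spermatid markers, genes transcribed after meiosis such as schuy and p-cup, were called lower at days 9 and 11 in 8 of 8 cases and summed to 829 to 1186 CPM in chinmoST against 2135 to 2501 CPM in wild-type testes. At days 3 and 5 that sum was 2306 to 3035 CPM and 2555 to 3007 CPM. The 3 late spermatocyte markers were all lower, summing to 1114 to 1346 against 1666 to 2954 CPM. Of 5 early spermatocyte markers 2 were lower, which is near the share of all genes, with sums of 156 to 199 and 187 to 223 CPM. All 5 markers of germline stem cells and spermatogonia were higher, at 330 to 518 against 57.2 to 68.3 CPM. The part of these cell stages in the levels of the tail genes was not tested.

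Somatic markers also differed, and their calls are read against 31.4% of all genes called lower and 34.1% called higher. All 6 follicle cell markers that could be tested were higher in chinmoST testes at days 9 and 11, with a sum of 7 genes of 2.46 to 55.0 against 0.315 to 4.68 CPM. Of the late cyst cell markers, 1 of 2 was lower (36.8 to 69.5 against 61.4 to 99.2 CPM), and both early cyst cell markers and both muscle sheath markers were higher. Their part in the result was not tested.

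The 10 genes varied together across the 36 testis libraries to different degrees. The Pearson correlation of a gene's log2(CPM + 1) with the mean profile of the 10 was highest for dj (0.98) and lowest for fzo (0.62) and Mst98Cb (0.71), as a description over libraries that share genotype and day. Among 14900 other genes, the 5 with profiles most like that mean were CG16739 (r = 0.990), ocn (0.988), CG30324 (0.987), CG1724 (0.986) and CG33284 (0.985). Their log2 fold changes at days 9 and 11 were between -1.79 and -1.29.

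In ovaries the 10 genes were near the limit of detection. Every one was called higher in wild-type testis than in ovary (49.1% of all genes were). Apart from 1 wild-type ovary library, replicate 1 of day 1, the highest level in the other 32 ovary libraries was between 0.185 CPM for Mst84Db and 1.15 CPM for Mst98Ca. The lowest testis library of either genotype was 148 times (fzo) to 1026 times (Mst98Ca) above the highest of these ovary libraries. CPM was scaled separately in testes and ovaries, so these ratios are approximate. Late chinmoST testes were thus still far above ovaries. Mst84Db was at 0 in 12 of the 32 ovary libraries and at 3 counts or fewer in 27 of them, and fzo had 1 to 41 counts in each.

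Replicate 1 of wild-type ovaries at day 1 stood apart, with 1098 counts of dj, 4088 of Mst98Ca, 188 of Mst84Db and 270 of fzo. For each of the 10 genes its level was 0.662 to 1.26% of the mean of wild-type testes of that day, a narrow band, and its 8 late spermatid markers summed to 28.9 CPM against at most 1.33 CPM in every other ovary library. The percentages are approximate, since testes and ovaries were scaled separately. Between genotypes in ovaries 0 of the 10 genes was called (13.8% of all genes were lower and 14.3% higher), with 0 of 10 at an unadjusted p under 0.05 and 1, Mst84Dd, called by DESeq2. Without that library 3 genes were called higher in chinmoST ovaries, djl, Mst84Da and Mst84Dd (15.5% of all genes). The counts behind this were small: the 10 genes together had 26 to 237 counts in the chinmoST ovary libraries and 4 to 294 in the other 14 wild-type ones, with medians of 104.5 and 73.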

How the data were processed

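Groups, days and replicate numbers were taken from the sample labels. Each library has a deposited RSEM table with an expected count for every gene, made by the authors and not normalized, and the submitters' processing notes name FastQC 0.11.9, Trim Galore 0.6.4, RSEM, Bowtie2 and dm6. The deposited files also give TPM, computed by the authors' program from expected count and length, and a gene length and effective length. TPM served for levels between genes and in an alternative. FPKM was left out. Symbols and positions came from the BDGP6 annotation, which holds 17710 of the 17807 identifiers.

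Expected counts were rounded, filtered with filterByExpr (14910 genes kept in testes, 14995 in the 33 wild-type libraries, 11478 in ovaries, the 10 genes among them each time) and then given TMM factors with edgeR 4.0.16 under R 4.3.3. edgeR's quasi-likelihood test was fitted over all libraries of a tissue with 1 coefficient for each genotype and day, p-values were adjusted by Benjamini-Hochberg over all genes tested, and a call needed an adjusted p below 0.05 together with a 1.5-fold change or more. The comparisons of genotype share their spread across days, and day 1 and day 11 libraries serve in several of them. DESeq2 1.42.0, limma 3.58.1 on log2(TPM + 1), library size alone, no filter, adjusted p alone, the compared days alone, removal of each library's lowess trend with gene length (span 0.3), a replicate block, leaving out each replicate, and leaving out the 4 wild-type libraries were alternatives. Leaving out 1 wild-type ovary library was chosen after seeing the data. The 10 genes and the lists of other genes were chosen with earlier results of these data known. Of the other genes, the text names in each list those with the highest and lowest change at days 9 and 11, further members of the mitochondrial list chosen after their values were seen, and the 5 genes most alike in profile. nos, on the list of spermatogonial markers, was not matched and not used here. Replicate numbers were checked for pairing (18 same-numbered pairs of chinmoST and wild-type testis and their deviations from group means, r from -0.29 to 0.32, 9 above 0.1) and did not pair the libraries. No 2 replicates were alike within sampling noise (lowest chi-square per gene 13.4 over 66 pairs). Intervals from counting would not include PCR duplication, which was not marked. Scripts were tested on simulated data. No sequence is printed.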

Additional observations from a re-analysis of the deposited data

Results flagged for a closer look

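In wild-type testes of days 9 and 11, 1 of the 6 libraries, replicate 1 of day 9, lay far from the others for 7 of the 10 genes. Its CPM was high for dj (1904), djl (1217), Mst84Da (1415), Mst84Dc (1455), Mst84Dd (699) and Mst87F (1660), and low for fzo (169). It is among the 4 wild-type libraries low in long genes. In all, 7 of 40 sets of a gene and a group of 6 libraries stood out this way, all 7 through this 1 library. The genes vary together, so the sets are not independent and their number cannot be set against chance.

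The genotype effect in testes differed between day 1 and day 11 by the interaction test for 9 genes. The log2 difference was -1.44 for dj, -1.40 for djl, -1.74 for Mst84Da, -1.65 for Mst84Dc, -1.97 for Mst84Dd, -1.62 for Mst87F, -1.27 for Mst98Ca, -1.12 for Mst98Cb and -1.38 for fzo.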

How the results depend on the processing

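At days 9, 11 and both together, the number of genes called lower was within 1.5 times of 10 under every alternative. The average over 6 days called 8, and 3 with the gene length correction, 4 without the 4 wild-type libraries, 4 with TPM and 4 to 7 with a replicate left out. At days 1 and 3, calls in either direction are counted. Day 1 called 1, and 2 without the 4 libraries (Mst84Db lower and Mst84Dd higher), 0 with the compared day alone and 0 to 2 with a replicate left out, the 2 again being 1 lower and 1 higher. Day 3 called 2, with Mst84Dd also called higher without the 4 libraries, and 1 to 3 with a replicate left out, the 3 being 2 lower and Mst84Dd higher. Day 5 called 3, and 1 with the compared day alone, 1 with TPM and 1 to 2 with a replicate left out. Day 7 called 7, and 4 with library size alone and 4 to 6 with a replicate left out. The interaction called 9, and 2 to 9 with a replicate left out. In ovaries 0 became 3 called higher without wild-type ovary day 1 replicate 1, 1 with DESeq2 and 0 to 7 with a replicate left out. The value of Mst84Dd at day 5 turned from -0.24 to 0.60 with the gene length correction and was then called higher. Without the 4 wild-type libraries it was 0.69 and was not called. Mst84Dc in ovaries ranged from -0.66 to 2.69 with a replicate left out (2.69 without replicate 1). The causes were not tested.

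With library size alone, 4009 genes were lower and 5829 higher at days 9 and 11 (median 0.28), against 4686 and 5077 with TMM (median 0.09), and all 10 genes were still called lower. For the interaction these were 2791 and 5114 against 3776 and 4178, and in ovaries 888 and 2019 against 1587 and 1645. With a replicate block, 10 genes were called lower at days 9 and 11 and no call among the 10 genes changed in any comparison. With TPM in ovaries dj, djl, Mst84Db and fzo gave no value. Depth limits the ovary values, not those of testes.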
